A study of Mus musculus with 56 samples.

Results

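Seminal vesicle secretory transcripts were followed along the male reproductive tract in 7 genes, Svs2, Svs3a, Svs3b, Svs4, Svs5, Svs6 and Pate4, out of 53379 genes in the count table. They were chosen by name with their levels in these libraries known, above all their high counts in the 21-month vas deferens, so their levels over regions and ages are a description. The calls of the fits across all genes are counted for them without p-values, and they support nothing. The libraries came from C57BL/6 mice aged 3 or 21 months, with 4 mice at each age, and the labels give no transgene and no treatment. From each mouse came 7 regions, namely testis, efferent ductules and initial segment, then caput, corpus and cauda epididymis, and lastly vas deferens, which makes 14 groups of 4 libraries. Per the methods, left and right organs of an animal were taken, fat and excess connective tissue were removed, and the regions were then separated. The labels do not say that a replicate number marks the same mouse in different regions. The seminal vesicle itself was not analysed here.

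The mouse seminal vesicle is an androgen-dependent gland whose epithelium secretes a small set of abundant proteins into the semen. Svs2 encodes the main substrate that transglutaminase crosslinks into the copulatory plug, Svs3a, Svs3b, Svs4, Svs5 and Svs6 encode further secreted proteins of the same fluid, and Pate4, also known as Svs7, encodes a small cysteine-rich protein of the Ly6 type that binds sperm. The Svs genes lie beside each other on chromosome 2 among genes for whey acidic protein type protease inhibitors, and Pate4 lies on chromosome 9 among its Pate relatives, which the epididymis is known to express.

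Sequencing depth ran from 11125279 to 20561967 counts per library, and a library had a count for 24560 to 32238 genes. The values below are counts, or CPM, the counts scaled to a common library size after TMM correction. A gene with no count in a library could have a level of up to 0.138 to 0.478 CPM, which is 3 counts in the deepest and in the shallowest library by effective size. One library, replicate 2 of the 3-month caput, had 49.7% of its counts on Gm42418, a locus that overlaps ribosomal RNA, and 1 library, replicate 3 of the 3-month cauda, had an immune cell marker sum (Ptprc, Cd3e, Cd79a and Cd68) of 504 CPM against 37.1 to 39.7 CPM in the other 3 libraries of its group. No pair of libraries was identical.

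The sequences just before the start of transcription are shown because they separate the members into near copies and single genes. They were taken from RefSeq for build GRCm38.p6, 5′ to 3′ on the strand of the gene, and were cut to end before the first annotated base. In Svs5 (chr2:164332515-164332739, plus strand) and Svs6 (chr2:164316501-164316750, plus strand) the capitals mark the 7 bases that differ between both genes over 221 aligned bases, an identity of 96.8%.
Svs5: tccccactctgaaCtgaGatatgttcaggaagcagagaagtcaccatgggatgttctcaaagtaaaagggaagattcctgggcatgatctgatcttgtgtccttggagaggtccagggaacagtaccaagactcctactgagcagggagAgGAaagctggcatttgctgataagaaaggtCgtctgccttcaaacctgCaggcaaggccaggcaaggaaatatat
Svs6: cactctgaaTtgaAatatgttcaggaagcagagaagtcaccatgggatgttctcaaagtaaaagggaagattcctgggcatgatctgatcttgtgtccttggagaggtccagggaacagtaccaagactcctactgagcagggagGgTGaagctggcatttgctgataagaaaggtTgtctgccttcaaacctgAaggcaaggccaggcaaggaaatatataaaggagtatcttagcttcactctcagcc
The same display for Svs3a (chr2:164289017-164289266, plus strand) and Svs3b (chr2:164256644-164256893, minus strand) has 6 differing bases in capitals over 250 aligned bases, an identity of 97.6%.
Svs3a: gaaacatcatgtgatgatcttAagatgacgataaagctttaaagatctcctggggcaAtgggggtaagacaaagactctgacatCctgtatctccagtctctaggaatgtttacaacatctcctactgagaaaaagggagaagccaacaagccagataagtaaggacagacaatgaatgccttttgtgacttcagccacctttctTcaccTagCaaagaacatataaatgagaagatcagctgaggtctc
Svs3b: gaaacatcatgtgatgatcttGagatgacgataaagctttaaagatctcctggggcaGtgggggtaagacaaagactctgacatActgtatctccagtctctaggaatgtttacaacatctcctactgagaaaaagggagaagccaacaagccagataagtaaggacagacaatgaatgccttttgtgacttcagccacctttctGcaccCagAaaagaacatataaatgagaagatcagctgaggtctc
For Svs2 (chr2:164238467-164238591, minus strand) and Svs4 (chr2:164278460-164278557, minus strand), the members with most counts in the vas deferens and the cauda, the capitals mark the letters TATAAA.
Svs2: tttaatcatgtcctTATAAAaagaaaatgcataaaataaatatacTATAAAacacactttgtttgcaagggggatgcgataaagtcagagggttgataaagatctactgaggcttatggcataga
Svs4: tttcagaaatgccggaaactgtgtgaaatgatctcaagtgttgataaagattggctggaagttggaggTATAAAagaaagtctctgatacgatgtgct

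Letters were searched on both strands in the whole RefSeq window of 300 bases, 250 before and 50 after the start, for the 6 members that have one. Pate4 is named only. TATAAA, which is read by the general transcription machinery, was in 6 of 6 windows against 13.6% of 32817 promoters. The letters AGATAA match a family of zinc finger factors and were in 4 of 6 windows against 11.2% of promoters. The latter were found in Svs2, Svs3a, Svs3b and Svs4. These matches describe letters and do not show that a factor binds, and the 2 near-identical pairs are not independent windows.

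All 6 Svs members are protein-coding genes on chromosome 2 of GRCm38, within 100 kb of each other, and Pate4 is a protein-coding gene at chr9:35607093-35611941 on the minus strand. Svs2 lies at chr2:164235929-164238466, Svs3b at chr2:164254363-164256640 and Svs4 at chr2:164275952-164278459, all on the minus strand. Svs3a at chr2:164289268-164291500, Svs6 at chr2:164316751-164318453 and Svs5 at chr2:164332740-164334396 lie on the plus strand. Counts of Svs3a and Svs3b are uncertain against each other, because 26.6% of the 100-base windows of the Svs3a exons and 27.6% of those of Svs3b occur in both genes. Pate4 shares 217 exon bases with Pate2 on the opposite strand, and 3.08% of its 100-base exon windows also occur in Pate2, so reads there depend on the counting strand, which is not given in the sources used here.

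Most counts on the members fell in few libraries. Svs2 had 52843 counts in the 56 libraries, of which 99.3% came from the 4 vas deferens libraries at 21 months, and 29 libraries had none. The same 4 libraries held 93.0% of 3595 Svs5 counts and 83.0% of 7189 Pate4 counts. Svs4 was spread otherwise, with 70.9% of its 1042 counts in the cauda. Svs3a and Svs3b were rare transcripts, with 63 and 70 counts in all, of which 88.9% and 72.9% were in the cauda. Svs6 had 30 counts in 17 libraries and never more than 4 in one, so its levels rest on very few counts. In the initial segment and, Pate4 aside, in the caput, the members were at or close to 0 in every library. The plot of the members over the 7 regions shows these patterns library by library.

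**Figure D1:**
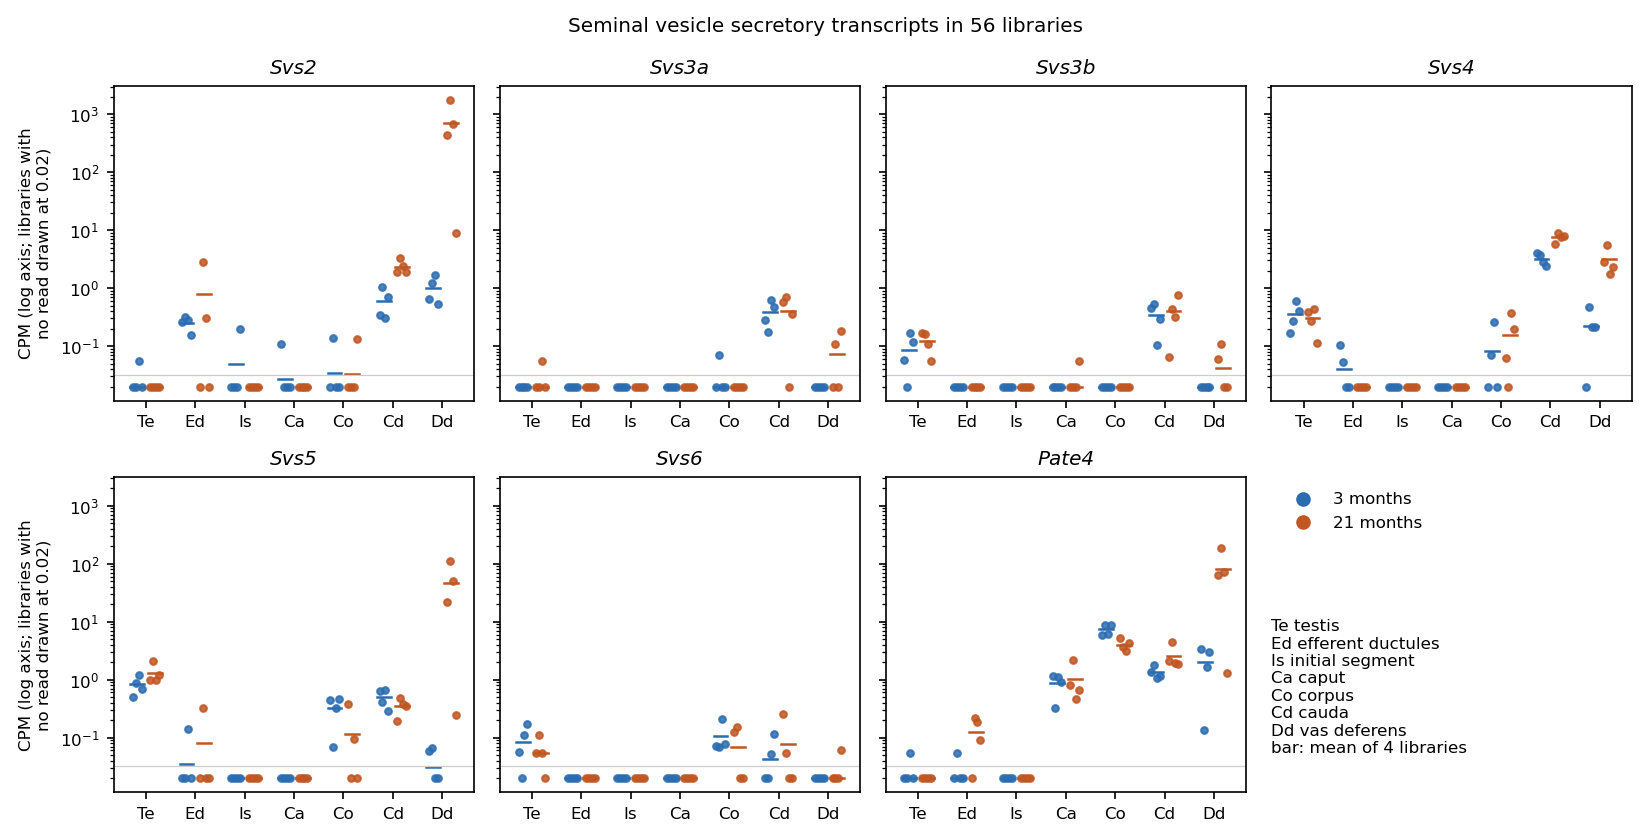
CPM (log axis) of each member in each of the 56 libraries, by region, with blue points for 3 months, orange points for 21 months and bars for the mean of 4 libraries; libraries with no count are drawn at 0.02. The 21-month vas deferens stands above all other groups for Svs2, Svs5 and Pate4 in at least 3 of its 4 libraries, Svs4 is highest in the cauda, and Svs5 has a low level in all 8 testis libraries.

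Svs2, the plug protein, was the member with the widest range. In the vas deferens at 21 months replicates 1 to 4 had 7219, 32530, 12588 and 147 Svs2 counts, which is 436, 1736, 687 and 8.85 CPM, while the 4 libraries at 3 months had 11, 18, 32 and 10 counts or 0.536 to 1.68 CPM. The lowest library at 21 months was thus above the highest at 3 months, yet far below its own group. The mean was 717 ± 735 CPM (SD, n = 4) at 21 months against 1.02 ± 0.534 CPM (SD, n = 4) at 3 months, and the fitted log2 difference was 9.44 ± 1.38 (SE), or 9.85 without replicate 4 and 8.53 without replicate 2 of the 21-month group. In bulk tissue of this kind, a change in the number of cells of a type and a change of RNA per cell cannot be told apart.

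Svs2 was next highest in the cauda. It had 29, 60, 38 and 32 counts there at 21 months (2.35 ± 0.652 CPM, SD, n = 4) and 6, 18, 6 and 12 counts at 3 months (0.603 ± 0.352 CPM, SD, n = 4). These groups did not overlap, and the log2 difference was 1.99 ± 0.40 (SE). In the order of the 14 group means the 21-month cauda came next after the 21-month vas deferens and did not overlap the 3-month vas deferens after it, whereas the 3-month vas deferens overlapped the 21-month efferent ductules that followed. The efferent ductules had 5, 6, 6 and 3 counts at 3 months and 0, 52, 5 and 0 counts at 21 months, so that replicate 2 of the 21-month group alone, at 2.80 CPM, carried the log2 difference of 1.71 ± 1.06 (SE). Without this library the difference was -1.01. Markers of other regions also differed between the 21-month efferent ductule libraries. The initial segment list (Adam28, Ros1, Lcn8 and Cst11) summed to 2.47, 588, 248 and 2.18 CPM in replicates 1 to 4, against 1.63 to 2.63 CPM at 3 months, with 3 of 4 genes higher at an adjusted p. The pair Akr1b7 and Akr1b8, markers of the vas deferens, summed to 12.7, 70.6, 136 and 13.7 CPM, against 21.5 to 46.7 CPM at 3 months, so both sums were high in replicates 2 and 3, while Svs2 was high in replicate 2. The part of these markers in the Svs2 value was not tested. Replicate 2 at 21 months was also the highest of its group for Svs2 in the vas deferens and the cauda, and for Pate4 in the vas deferens, cauda and caput. In the 21-month corpus, however, Pate4 was highest in replicate 1 (5.13 CPM), with replicate 2 at 3.61 CPM. In the testis 1 of 8 libraries had a single Svs2 count.

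Svs5, a further secreted protein of the gland, moved with Svs2 in the vas deferens. Its counts there were 368, 2043, 928 and 4 at 21 months (22.2, 109, 50.6 and 0.241 CPM) and 1, 1, 0 and 0 at 3 months. The 4 libraries at 21 months were all above the 4 at 3 months, although replicate 4 was so by few counts. The ratio of the summed counts, 3343 against 2 and scaled for library size, was 1663 with a counting interval of 460 to 13737 (exact, 95%), which covers counting error only and not the spread between libraries. Against a floor of 3 counts at 3 months the ratio was 1109. Svs6, whose promoter is nearly the same, had 1 count in the 4 libraries at 21 months and 0 counts at 3 months.

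Outside the vas deferens Svs5 had a different order of regions from Svs2. The testis came second, with 9, 16, 22 and 12 counts at 3 months (0.824 ± 0.300 CPM, SD, n = 4) and 18, 38, 18 and 22 counts at 21 months (1.32 ± 0.512 CPM, SD, n = 4). Every testis library had Svs5 counts, while Svs2 was nearly absent from them. The ages overlapped in the testis, with a log2 difference of 0.65 ± 0.31 (SE), or 0.36 to 0.90 over the alternatives. In these testis libraries the immune cell marker sum was 4.24 to 5.57 CPM at 3 months and 7.35 to 9.68 CPM at 21 months. Of its 3 tested genes 1 was called higher, also at an adjusted p. The part of this list in the Svs5 difference was not tested. In the cauda Svs5 had 11, 7, 13 and 5 counts at 3 months and 3, 9, 6 and 6 counts at 21 months, with a log2 difference of -0.48 ± 0.45 (SE) and overlapping ages, unlike the higher values of Svs2 at 21 months in the same libraries. The corpus had 6, 1, 6 and 6 Svs5 counts at 3 months and 6, 0, 1 and 0 at 21 months.

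Pate4, the member on chromosome 9, was also highest in the vas deferens at 21 months. Replicates 1 to 4 had 1069, 3557, 1322 and 22 counts (64.6, 190, 72.2 and 1.32 CPM), and the 3-month libraries had 59, 2, 31 and 55 counts (3.42, 0.134, 1.63 and 2.95 CPM). Replicate 4 at 21 months fell inside the range of the 3-month libraries, so the ages overlapped, and the log2 difference was 5.28 ± 1.07 (SE), or 5.69 without that library.

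In the epididymis Pate4 had its own pattern. The corpus had 81, 126, 116 and 114 counts at 3 months (7.38 ± 1.57 CPM, SD, n = 4) and 82, 48, 33 and 65 counts at 21 months (4.02 ± 0.882 CPM, SD, n = 4). It was lower at 21 months with no overlap in CPM, by a log2 difference of -0.87 ± 0.21 (SE). In these corpus libraries the red blood cell list (Hbb-bs, Hbb-bt, Hba-a1, Hba-a2 and Alas2) summed to 63.7 to 79.5 CPM at 3 months and 96.1 to 403 CPM at 21 months, with 5 of 5 genes called higher and 4 at an adjusted p. Gm42418 took 10.4% to 26.3% of the counts at 3 months and 17.0% to 36.0% at 21 months. The part of either in the Pate4 difference was not tested. In the cauda Pate4 had 24, 30, 21 and 20 counts at 3 months and 33, 81, 31 and 32 counts at 21 months, 1.35 ± 0.307 against 2.59 ± 1.21 CPM (SD, n = 4). There it was higher at 21 months with no overlap, by 0.97 ± 0.34 (SE), and by 0.56 without replicate 2 of the 21-month group. The caput had 21, 2, 20 and 14 counts at 3 months and 13, 33, 10 and 12 at 21 months, which overlapped with a log2 difference of 0.10 ± 0.49 (SE), or -0.07 without the 3-month library rich in Gm42418.

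Svs4, a small androgen-regulated secreted protein, was the only member with most of its counts in the cauda and more than 100 counts in all. Cauda libraries had 69, 62, 55 and 42 counts at 3 months (3.23 ± 0.707 CPM, SD, n = 4) and 90, 164, 123 and 134 counts at 21 months (7.59 ± 1.29 CPM, SD, n = 4). The ages did not overlap, and the log2 difference was 1.25 ± 0.22 (SE), with a range of 1.14 to 1.37 over the alternatives. In the same cauda libraries, where Svs2 and Pate4 were higher too, the smooth muscle list (Myh11, Acta2, Actg2, Cnn1 and Des) summed to 4005 to 5869 CPM at 3 months and 2418 to 3847 CPM at 21 months. Of its 5 genes 4 were called lower and none at an adjusted p. The sum of Akr1b7 and Akr1b8 was 23.7 to 32.0 CPM and 37.0 to 62.8 CPM, with 1 of 2 genes called higher and none at an adjusted p. A list of caput genes, at a low level there, summed to 1.03 to 2.67 CPM at 3 months and 0.109 to 0.503 CPM at 21 months. Of its 3 genes 2 were called lower and none at an adjusted p. The part of these markers in the levels of the members was not tested. In the vas deferens Svs4 had 0, 7, 4 and 4 counts at 3 months and 47, 105, 32 and 39 counts at 21 months, 0.224 ± 0.192 against 3.14 ± 1.71 CPM (SD, n = 4). The log2 difference was 3.80 ± 0.58 (SE), without overlap. Replicate 4 of the 21-month vas deferens, low for Svs2, Svs5 and Pate4, was not low for Svs4. Each testis library had between 2 and 11 Svs4 counts.

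Svs3a and Svs3b, the pair with shared sequence, were seen mainly in the cauda and at a low level. Svs3a had 5, 3, 12 and 8 counts there at 3 months and 9, 13, 0 and 6 at 21 months. Svs3b had 8, 9, 2 and 5 counts at 3 months and 1, 8, 5 and 13 at 21 months. The ages overlapped for both, with log2 differences of 0.10 ± 0.73 (SE) for Svs3a and 0.24 ± 0.65 (SE) for Svs3b. These values rest on 24 to 28 counts in a group. In the 21-month vas deferens, against 52484 Svs2 counts, there were 5 Svs3a and 3 Svs3b counts.

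The number of members called between the ages is given beside the share of all tested genes called, and nothing is read from it, since the members were listed with these differences known. A gene was called at an unadjusted p under 0.05 in the edgeR quasi-likelihood test with a fold change of at least 1.5. In the vas deferens 4 members were called, all higher at 21 months, where 12.4% of 25216 genes were called higher. The same 4 also passed an adjusted p of 0.05, as did 11.4% of genes in that direction, and 3 of them had no overlap between the ages, against 13.2% of genes. In the cauda Svs2, Svs4 and Pate4 were called higher, against 3.54% of genes, all 3 without overlap, against 3.63%, and none passed an adjusted p of 0.05, as only 0.07% of genes did. Without the 3-month cauda library of high immune marker sum the number called was again 3, with log2 differences of 1.78 for Svs2, 1.21 for Svs4 and 0.89 for Pate4. In the corpus Pate4 was called lower, against 3.36% of genes, also at an adjusted p, against 1.47%, and without overlap, against 5.35%. It was not called with all 56 libraries in 1 fit, where its log2 difference was -0.84. In the testis Svs5 was called higher, against 1.42% of genes, but not at an adjusted p, which 0.353% of genes passed in that direction, nor in DESeq2's Wald test. In the initial part of the tract few members had the 10 counts needed for a test, namely Svs2 in the efferent ductules, Pate4 in the caput and none in the initial segment. Neither of these was called, and in efferent ductules, initial segment and caput 6.68%, 6.01% and 4.75% of genes were called higher and 6.16%, 5.45% and 8.48% lower.

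**Figure D2:**
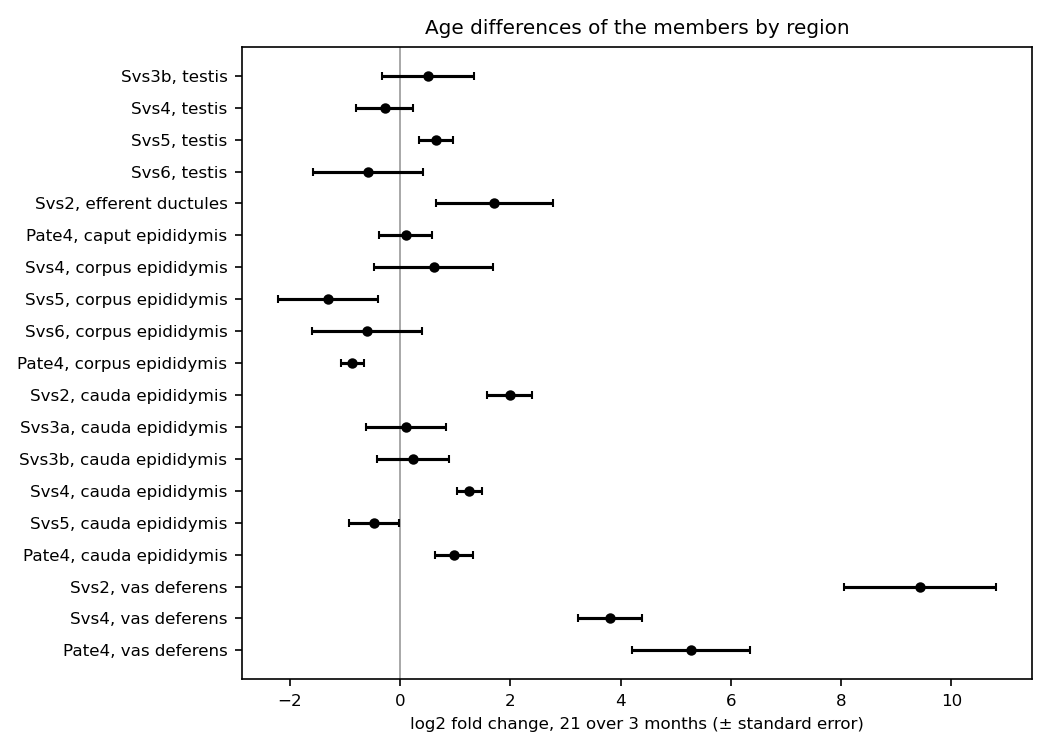
Fitted log2 fold change of 21 over 3 months (horizontal axis) with its standard error for each member and region with at least 10 counts in the region and more than 3 at 3 months. The 3 differences in the vas deferens are the largest, Svs2, Svs4 and Pate4 in the cauda lie above 0, and Pate4 in the corpus lies below 0 at -0.87.

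By region, 7 members were called region-specific at 3 months, which asks for a mean CPM 4 or more times that of the remaining regions averaged, and again the counts are a description. Svs4, Svs3a and Svs3b were called in the cauda, at 28.8, 133 and 26.6 times that mean, where 2.2% of genes were called. The ratios of Svs3a and Svs3b are uncertain, since they rest on 28 and 24 cauda counts and on 1 and 6 counts elsewhere. Pate4 and Svs6 were called in the corpus at 10.6 and 5.38 times, against 2.71% of genes, with only 7 counts behind the Svs6 value, Svs5 in the testis at 5.12 times, against 28.2%, and Svs2 in the vas deferens at 5.96 times, against 3.21%. When every other region was compared singly, 3 of the 7 calls were left, those of Svs4, Svs3a and Svs3b. The share of all genes left by this stricter rule was not computed, so nothing is read from that number. The means of Svs2 in the vas deferens and the cauda, in the fit of the 3-month libraries, were 1.01 and 0.624 CPM. At 21 months 6 members were called. Svs4, Svs3a and Svs3b stayed with the cauda at 13.3, 30.8 and 14.6 times, against 1.99% of genes, while Svs2, Svs5 and Pate4 were called in the vas deferens at 1306, 153 and 60.3 times, against 3.99%. Pate4 and Svs5 therefore had different leading regions at the 2 ages. The vas deferens means behind these ratios cover a wide spread, for Svs2 from 8.85 to 1736 CPM as given above.

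Compared per kilobase of exon, the order of the members differed between the cauda and the vas deferens. In the 21-month cauda Svs4 led with 10.4 ± 1.77 CPM per kb (SD, n = 4), before Pate4 with 2.42 ± 1.13, Svs2 with 1.19 ± 0.328 and Svs5 with 0.547 ± 0.188. In the 21-month vas deferens Svs2 led with 361 ± 370 CPM per kb, before Pate4 with 76.5 ± 73.3, Svs5 with 70.5 ± 72.9 and Svs4 with 4.29 ± 2.33. This order of means did not hold in every library. Svs5 was above Pate4 in replicate 3, and Svs4 was above both in replicate 4. In the corpus at 3 months Pate4 stood at 6.88 ± 1.47 CPM per kb, and in the testis at 21 months Svs5 stood at 2.04 ± 0.793.

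The makeup of the member counts in the 21-month vas deferens varied less than their level in replicates 1 to 3. In replicate 4 it differed mainly by a larger share of Svs4. In replicates 1, 2 and 3 of the 21-month vas deferens Svs2 took 82.9%, 85.1% and 84.7% of the member counts, a share that also depends on exon length, and there were 5.10, 6.28 and 7.37 Svs5 counts for every 100 Svs2 counts. The exact intervals of these 3 ratios, 4.58 to 5.66, 6.00 to 6.57 and 6.89 to 7.88, did not overlap. Replicate 4, with 216 member counts against 8704 to 38239 in the others, had 68.1% Svs2 (61.4% to 74.2%) and 2.72 Svs5 counts per 100 Svs2 counts (exact interval 0.732 to 7.12). In it Svs4 took 18.1% of the member counts, and the Svs5 interval contains the ratios of replicates 1 and 2. Pate4 came to 14.8, 10.9, 10.5 and 15.0 per 100 Svs2 counts in replicates 1 to 4. Svs4 did not keep such a ratio, with 0.651, 0.323, 0.254 and 26.5 per 100. Its level in CPM varied less between these libraries than that of Svs2, with a coefficient of variation of 54.4% against 102%.

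In the 21-month cauda the makeup was another one. There were 273 to 419 Svs4 counts and 81.6 to 135 Pate4 counts per 100 Svs2 counts. Over the summed counts Svs4 made up 54.9% there and 0.360% in the 21-month vas deferens, where single libraries ran from 0.215% to 18.1%, the last in replicate 4. Svs2 made up 17.1% against 84.6%. In the 3-month vas deferens Pate4 had 62.6% of only 235 member counts, but it led only in replicates 1 and 4, and Svs2 led in replicates 2 and 3. The single efferent ductule library with 52 Svs2 counts had 11.5 Svs5 (exact interval 4.05 to 26.9) and 7.69 Pate4 (2.02 to 20.9) per 100. In the 21-month cauda there were 10.3 to 18.8 Svs5 counts per 100. The efferent ductule library had no Svs4 count, for which the exact interval reaches 7.35 per 100. This is 1 library with few counts, and where its counts came from was not tested.

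**Figure D3:**
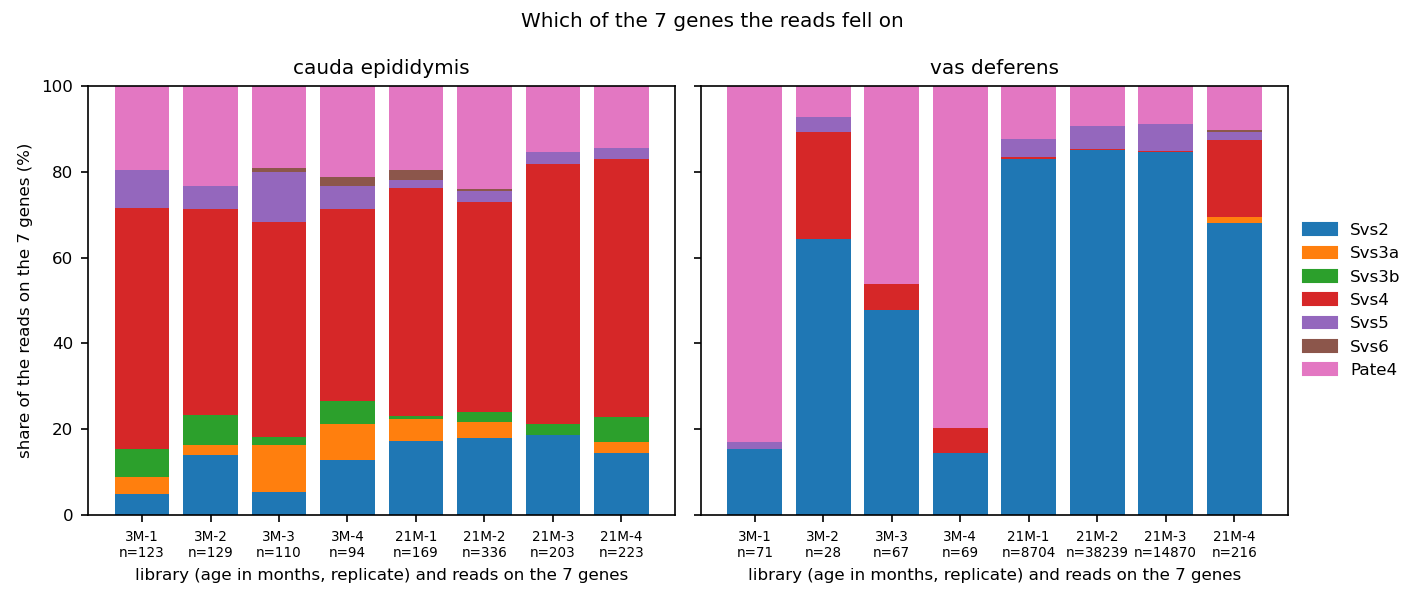
Share of the counts on the 7 genes that each gene took (vertical axis, percent) in the 8 cauda and the 8 vas deferens libraries, with the number of member counts under each bar. Svs4 is the largest part in all cauda libraries, and Svs2 in all 4 vas deferens libraries at 21 months.

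Other genes known from seminal vesicle secretion had another order of regions and of vas deferens libraries than Svs2. The list held Svs1, an amine oxidase-like protein, Sva, Spinkl and Spink1, of which the last 2 are protease inhibitor types, Ceacam10, an adhesion protein, and Serpine2, a serine protease inhibitor. Of these, 4 genes were highest in the epididymis: Serpine2 reached 619 ± 37.8 CPM, Spinkl 113 ± 58.3 CPM (SD, n = 4, both cauda at 21 months), Svs1 128 ± 41.2 CPM (cauda at 3 months) and Ceacam10 675 ± 176 CPM (corpus at 21 months). Sva and Spink1 had no count in any vas deferens library, including the one with 32530 Svs2 counts.

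In the vas deferens all 4 tested genes of this list rose with age, with adjusted p-values from edgeR's quasi-likelihood test over all genes. The list was chosen with earlier results of these data known, so these values are a description and support nothing. Svs1 rose by a log2 difference of 2.14 ± 0.53 (SE, adjusted p = 0.0180), Ceacam10 by 1.82 ± 0.38 (0.00763), Spinkl by 1.45 ± 0.39 (0.0241) and Serpine2 by 1.24 ± 0.22 (0.00375), and none overlapped between the ages. The median log2 difference of the list was 1.64 against 0.02 over all genes tested. The direction was that of the 4 called members, but the libraries ranked differently. Ceacam10 had 578, 649, 1277 and 2149 counts in replicates 1 to 4 at 21 months and 290 to 367 at 3 months, and Svs1 had 51, 29, 95 and 178 counts against 12 to 25. For all 4 genes the highest library in CPM was replicate 4, the one with least Svs2, Svs5 and Pate4. In the cauda 1 of the 5 tested genes of the list, Spinkl, was called higher by the rule used for the members (log2 difference 0.66 ± 0.29, SE), and none passed an adjusted p of 0.05, as no member did.

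**Figure D4:**
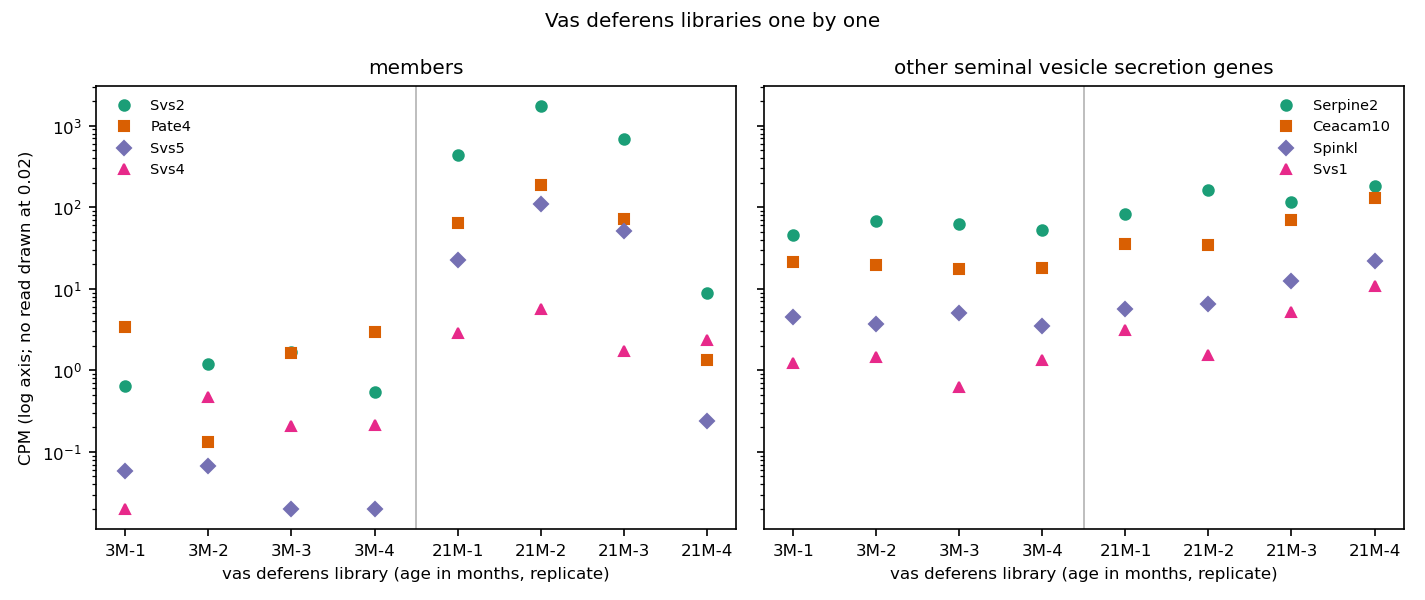
CPM (log axis) in each vas deferens library, with 3-month libraries left and 21-month libraries right of the grey line, for 4 members and for 4 other genes of seminal vesicle secretion. Svs2, Svs5 and Pate4 are lowest in replicate 4 of the 21-month group, and Serpine2, Ceacam10, Spinkl and Svs1 are highest in it.

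Markers of neighbouring tissues and other cell types were read in the same libraries. Of the prostate and coagulating gland list, Pbsn, Sbp, Msmb and Hoxb13 were at 0 in all 8 vas deferens libraries and 1 of 8 genes could be tested, and its summed level was 0.263 to 0.804 CPM at 3 months and 0.480 to 0.819 CPM at 21 months. The tested gene, Tgm4, the transglutaminase that crosslinks Svs2, had a log2 difference of 0.01 ± 0.50 (SE, edgeR adjusted p = 0.996). The corpus and cauda list (Spint3, Wfdc13 and Wfdc9) rose, 3 of 3 genes at an adjusted p, from sums of 3.11 to 5.41 CPM to 7.43, 7.85, 15.8 and 30.0 CPM in replicates 1 to 4, highest where Svs2 was lowest. The immune cell list rose as well, 4 of 4 genes, from 35.8 to 43.1 CPM to 71.4 to 256 CPM, also highest in replicate 4.

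Lists for the wall and the lining of the vas deferens were read in the same way. The smooth muscle sum was 11750 to 12099 CPM at 3 months and 12098 to 18067 CPM at 21 months, with 3 of 5 genes higher at an adjusted p. The sum of Akr1b7 and Akr1b8, aldo-keto reductases of the vas deferens epithelium, was 21201 to 24234 CPM at 3 months and 10890 to 18487 CPM at 21 months, with 1 of 2 genes lower. In the cauda libraries the same 2 genes summed to 23.7 to 62.8 CPM, so the markers separated both regions as labelled. The red blood cell sum ranged from 87.6 to 158 CPM at 3 months and from 9.82 to 132 CPM at 21 months, with 1 of 5 genes called lower and none at an adjusted p. The sperm and germ cell sum ranged from 7.87 to 94.3 CPM and from 27.8 to 89.0 CPM, with 2 of 6 genes called higher and 1 at an adjusted p. Of the remaining lists, the basal epithelium list had no call among 3 genes, with sums of 71.8 to 93.8 and 85.9 to 99.1 CPM. The initial segment list had 1 of 3 tested genes higher at an adjusted p, with sums of 14.5 to 18.9 and 10.5 to 15.7 CPM. The caput list had 1 of 2 tested genes called higher and none at an adjusted p, with at most 0.846 CPM. The efferent ductule list had 1 of 4 higher and 1 lower, with sums of 317 to 354 and 246 to 391 CPM. The part of any of these lists in the levels of the members was not tested.

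The neighbours of the Svs genes differed among themselves in the vas deferens. Wfdc15b, a whey acidic protein type gene 14269 bp from Svs2, was at 992 ± 165 CPM (SD, n = 4) in the 21-month cauda, and in the vas deferens it rose from 920 to 1284 counts per library to 1463, 2372, 2162 and 2980 counts, a log2 difference of 1.02 ± 0.17 (SE, edgeR adjusted p = 0.00314). Kcns1, a potassium channel subunit, rose there by 2.09 ± 0.31 (adjusted p = 0.00176). Wfdc5, a further gene of the whey acidic protein type 53187 bp from Svs2, had no count in the 3-month libraries and a mean of 0.246 CPM at 21 months (adjusted p = 0.0161). Slpi, a leukocyte protease inhibitor on the other side of the cluster, fell from 21.2 to 12.8 CPM, a log2 difference of -0.74 ± 0.18 (adjusted p = 0.0157), where 8.47% of all genes were lower at an adjusted p. Of 14 annotated genes within 100 kb of an Svs member, 11 could be tested in the vas deferens, of which 3 rose and 1 fell at an adjusted p, with a median log2 difference of 0.09 against 0.02 over all genes.

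**Figure D5:**
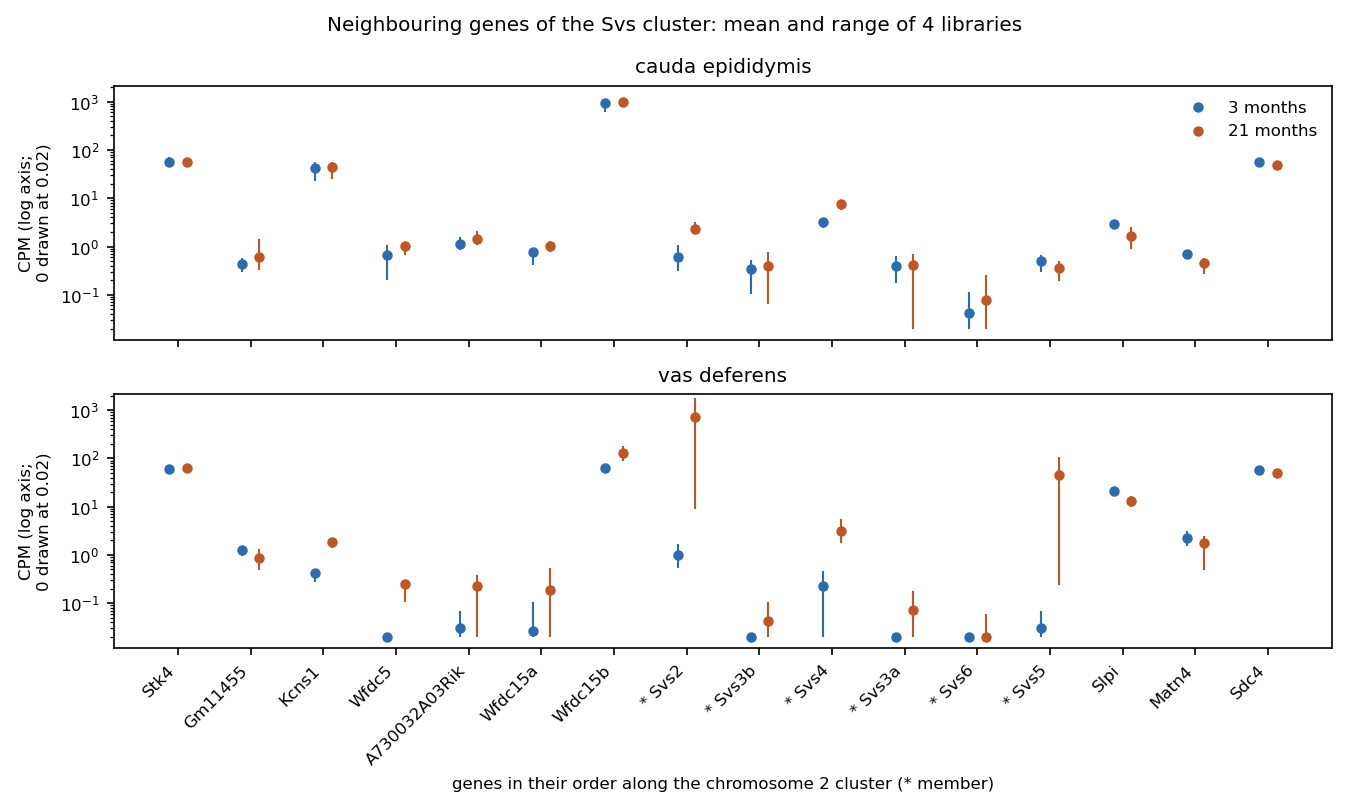
Mean (points) and range (lines) over 4 libraries of the CPM (log axis) of the chromosome 2 genes in their order, in the cauda and the vas deferens at 3 months (blue) and 21 months (orange), with members starred. Wfdc15b has a mean of 992 CPM in the cauda at 21 months, and the line of Svs2 in the vas deferens at 21 months runs from 8.85 to 1736 CPM.

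Around Pate4, its relatives Pate1, Pate2 and Pate3 were corpus genes. At 3 months the corpus had 668 ± 180 CPM of Pate2, 362 ± 40.9 CPM of Pate1 and 157 ± 41.4 CPM of Pate3 (SD, n = 4). Pate1 fell with age in the corpus by a log2 difference of -0.70 ± 0.12 (SE, edgeR adjusted p = 0.00440) and Pate3 by -0.72 ± 0.16 (adjusted p = 0.0217), the direction Pate4 had there, while Pate2 missed the threshold at -0.49 ± 0.15 (adjusted p = 0.0949). In the vas deferens Pate2 rose by 1.74 ± 0.45 (adjusted p = 0.0213), with 33, 33, 107 and 74 counts at 21 months, fewer than Pate4 in replicates 1 to 3. Pate1 had 376, 311, 856 and 1559 counts there, with its highest library in replicate 4, where Pate4 was lowest.

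Genes whose levels ran most like those of a member were ranked by Pearson's correlation of log2(CPM + 1) over the 56 libraries, among 28717 genes, as a description without a test. The points share their regions and, for Svs2 and Svs5, mostly lie at 0 with a few high libraries. Svs2 was most like Igkv6-20 (r = 0.932), Svs5 (0.910), Ighv1-42 (0.906), Igkv5-39 (0.879) and Prg2 (0.844), that is 3 immunoglobulin variable segments and an eosinophil granule protein beside its own cluster neighbour. By Spearman's rho these were 0.282 to 0.446. Igkv6-20 had 13, 29, 33 and 5 counts in replicates 1 to 4 of the 21-month vas deferens and Igkv5-39 had 377, 241, 120 and 16. For Svs5 the list was Svs2 (0.910), Igkv6-20 (0.877), Ighv1-42 (0.805), Igkv5-39 (0.778) and Igkv6-14 (0.771). By Spearman's rho these ran from 0.096 for Igkv5-39 to 0.536 for Igkv6-14.

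Svs4 was most like genes of the 21-month cauda. These were Shisa6 (r = 0.937), the pseudogene Klk1b14-ps (0.931), Fndc9 (0.928), Gm5615 (0.923) and Lce6a (0.913), with Spearman's rho of 0.644 to 0.872. Pate4 was most like Svs2 (0.795), Rbfox1, a splicing factor (0.781), Gm26588 (0.767), Optc, an extracellular matrix protein (0.767), and Wee2, a cell cycle kinase (0.765), all highest in the 21-month vas deferens. Among the members the correlation was 0.910 for Svs2 with Svs5, 0.748 for Svs5 with Pate4 and 0.528 for Svs2 with Svs4.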

How the data were processed

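RNA was measured in 56 libraries of mouse tissue. The deposited values are raw whole-number counts for each Ensembl gene, which the authors left without normalization. Per the methods, the libraries were stranded and made from total RNA, sequencing was paired-end, and HISAT2 aligned the reads to GRCm38. HTSeq and cutadapt are named in the submitters' processing notes. Versions, annotation release, counting mode and strand setting are not given in the sources used here. The methods and the labels name different RNA extraction reagents.

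Groups came from region, age and replicate in the labels. Symbols, positions and exon lengths came from GENCODE M21 (53274 of 53379 genes), and promoters from RefSeq. Ages were compared in each region on 8 libraries, and regions on 28 libraries of 1 age, with edgeR 4.0.16 (R 4.3.3; limma 3.58.1), quasi-likelihood F-test and TMM, on genes with at least 10 counts in total. Every adjusted p is Benjamini-Hochberg over all genes tested. A standard error is the log2 fold change divided by the root of F. Per the methods, 4 mice were used at each age, and p-values measure the spread between the 4 libraries of a group. Exact 95% intervals of ratios came from scipy 1.17.1 and cover counting error only. The age fit recovered 99.5% of 200 simulated 3-fold changes in the vas deferens (24812 genes). The changed genes had ample counts and a fixed, small spread between libraries. Recovery for genes with few counts or a wide spread, as in the members, was not measured.

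The members and lists were chosen with earlier results of these data known. Named genes are the members, the other seminal vesicle secretion list, genes within 100 kb of a member with a group mean of at least 1 CPM, and for each member with a count in at least 20 libraries the 5 most correlated genes, among genes with a mean of at least 0.1 CPM. Of these only genes on which a result turns are described, and list genes are named as markers. Alternatives were DESeq2 1.42.0 (Wald), its size factors, library size only, filterByExpr or no filter, a joint fit of all 56 libraries, a block for the replicate number, calls by adjusted p, omission of single libraries, comparison with every other region singly, log2(CPM + 0.1) and Spearman's correlation. Besides the lists given, 1 marker list and 1 motif are not reported here.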

Additional observations from a re-analysis of the deposited data

Results flagged for a closer look

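Among 24 groups of 4 libraries with enough counts of a member, 2 had a library far from the other 3, and chance gives about 1 in 20. One was Svs2 in the efferent ductules at 21 months, where replicate 2 stood at 2.80 CPM. The other was Pate4 in the cauda at 21 months, where replicate 2 stood at 4.40 CPM. Pate4 was also higher at 21 months in the cauda (log2 difference 0.97) and lower in the corpus (-0.87), with no overlap between the ages in either region, and this difference between the regions was not tested.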

How the results depend on the processing

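The 4 members called in the vas deferens stayed 4 when any library was left out, with log2 differences of 8.53 to 9.85 for Svs2, 3.38 to 4.36 for Svs4 and 4.48 to 5.69 for Pate4 over 16 alternatives each. For Svs5, with 2 counts at 3 months, the fitted value depends on the prior count and ran from 9.42 to 10.81 over 15 alternatives, lowest without replicate 2 at 21 months. The summed mean CPM of the members there, 848, ran from 450.2 to 1126 when 1 library was left out. In the cauda 3 members were called, 2 to 3 without single libraries (2 without replicate 2 at 21 months, where Pate4 had its highest value) and 0 at an adjusted p. In the corpus 1 was called, 1 to 2 without single libraries (2 without replicate 1 at 21 months) and 0 with all 56 libraries in one fit, while the log2 difference of Pate4 was -0.76 or lower under all 16 alternatives. In the testis 1 was called, 0 to 1 without single libraries (0 without replicates 1, 2 or 4 at 3 months or replicates 2 or 4 at 21 months), and 0 by DESeq2's Wald test, library size only, filterByExpr, an adjusted p or all 56 libraries. In the efferent ductules 0 were called and 1 without a filter. Of the other listed genes over all regions there were 96 calls, and 63 at an adjusted p, a rule that also drops the 1.5-fold minimum and so adds some genes. The region-specific members at 3 months, 7, were 6 to 7 without a replicate number and 3 when every other region was compared singly. The causes were not tested. For Svs2 the 5 most similar genes kept 1 with log2(CPM + 0.1) and 0 with Spearman's correlation.

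With the replicate block the number of members called was 4 in the vas deferens, 3 in the cauda, 1 in the corpus, 1 in the testis and 0 elsewhere, as without it. Deviations of same-numbered libraries from their group means correlated above 0.1 in 17 of 84 pairs at 3 months and in 10 of 84 at 21 months, so the number was not treated as a pair. This does not show that it marks no mouse. Depth limits Svs3a, Svs3b and Svs6, with 63, 70 and 30 counts in all.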
